A study of Mus musculus with 39 samples.

Results

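The genes described here are 10 members of the semaphorin, plexin and guidance system, measured in macrophages sorted from the embryonic mouse brain. They are the ligands Sema6d, Sema4d, Sema4a and Sema4b, the plexin receptors Plxnb2 and Plxna1, the co-receptors Nrp1 and Nrp2, and the plexin-domain proteins Plxdc1 and Plxdc2. The 10 were taken by symbol from the 53379 genes of the count table, all 10 were found, and all 10 were among the 22061 genes that passed the expression filter. Of these, 3 (Sema6d, Plxdc1 and Plxdc2) were chosen by their levels in microglia and BAM, which had been seen to separate the populations. Differences between the populations are therefore given as descriptions with no test for any of the 10. Tests are kept for changes with stage and, in the other 7, for differences of these changes between populations. Both draw on the same libraries and are not independent of the choice of genes.

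Brain cells came from C57Bl/6 embryos of timed matings at E10.5, E11.5, E12.5, E14.5, E16.5 and E18.5, counted in days with the plug day as E0.5. Flow cytometry separated microglia, the macrophages of the brain parenchyma, from border-associated macrophages (BAM), found in the meninges, the choroid plexus and along vessels. In order of stage the microglia groups held 4, 3, 3, 2, 3 and 4 libraries and the BAM groups 4, 3, 3, 3, 3 and 4, which makes 39 libraries in 12 groups that differ in population and stage by their labels. The sort gates and the litter or pool behind each library are not given in the labels, so p-values measure the spread between these libraries, which may be technical.

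Each library held between 10.7 M and 47.2 M counts (median 22.4 M). Library names fell into a series R8 of 23 libraries and a series R10 of 16, and R10 held all E10.5 and E11.5 libraries plus 1 E18.5 library of each population, so stage and series are partly joined. The summed level of 4 microglia markers (Tmem119, P2ry12, Sall1 and Siglech) was 411 to 686 CPM in microglia and 185 to 275 CPM in BAM at E10.5, and 4119.6 to 4779.9 against 393 to 535 CPM at E18.5. CPM is the count over the library total, in the usual depth-scaled unit. The summed level of 5 BAM markers (Mrc1, Lyve1, Cd163, Pf4 and Ms4a7) was 3444 to 4895 CPM in BAM and 676 to 1556 CPM in microglia at E10.5, and 13004 to 15956 against 522 to 620 CPM at E18.5. Both populations therefore matched their labels, less widely at E10.5 than later. In bulk samples, fewer cells of a type and less RNA per cell cannot be told apart.

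Semaphorins are secreted or membrane-bound proteins first known for steering growing axons. They bind plexins, whose cytoplasmic part acts on small GTPases and thereby on the cytoskeleton and on adhesion. Neuropilins are co-receptors with short cytoplasmic tails that also bind vascular endothelial growth factors. In immune cells the same proteins act in migration, cell contact and activation, and macrophages carry both ligands and receptors.

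Per length of transcript, Plxnb2 was the most abundant of the 10 in all 12 groups. On the TPM scale (counts scaled by gene length and library, which allows genes to be compared), Plxnb2 stood at 724 ± 75.3 TPM (SD, n = 4) in E18.5 microglia and 462 ± 32.2 TPM (SD, n = 4) in E18.5 BAM. In E18.5 microglia the order below it was Plxdc2 (356 ± 36.5 TPM), Sema4d (186 ± 37.9 TPM), Nrp1 (164 ± 15.6 TPM), Plxdc1 (47.7 ± 7.62 TPM), Sema4a (45.5 ± 7.07 TPM), Nrp2 (29.9 ± 3.91 TPM), Sema4b (12.9 ± 2.94 TPM), Sema6d (3.83 ± 0.62 TPM) and Plxna1 (2.44 ± 0.35 TPM). Among these neighbours, Sema4d overlapped with Nrp1 and Plxdc1 with Sema4a, and the other 7 neighbouring pairs did not overlap over libraries.

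In E18.5 BAM the genes below Plxnb2 stood in another order. Nrp1 (359 ± 34.3 TPM) came next, then Sema4a (106 ± 7.84 TPM), Sema6d (47.1 ± 6.40 TPM), Sema4b (32.7 ± 4.43 TPM), Sema4d (29.0 ± 3.67 TPM), Nrp2 (26.7 ± 3.64 TPM), Plxdc2 (19.5 ± 5.13 TPM), Plxna1 (12.4 ± 2.10 TPM) and Plxdc1 (4.45 ± 2.02 TPM). The run from Sema4b down to Plxna1 held 4 neighbouring pairs that overlapped over libraries. Plxdc2 thus stood directly below Plxnb2 in microglia and near the bottom in BAM, and Sema6d stood above Sema4b and Sema4d in BAM and below both in microglia.

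**Figure D1:**
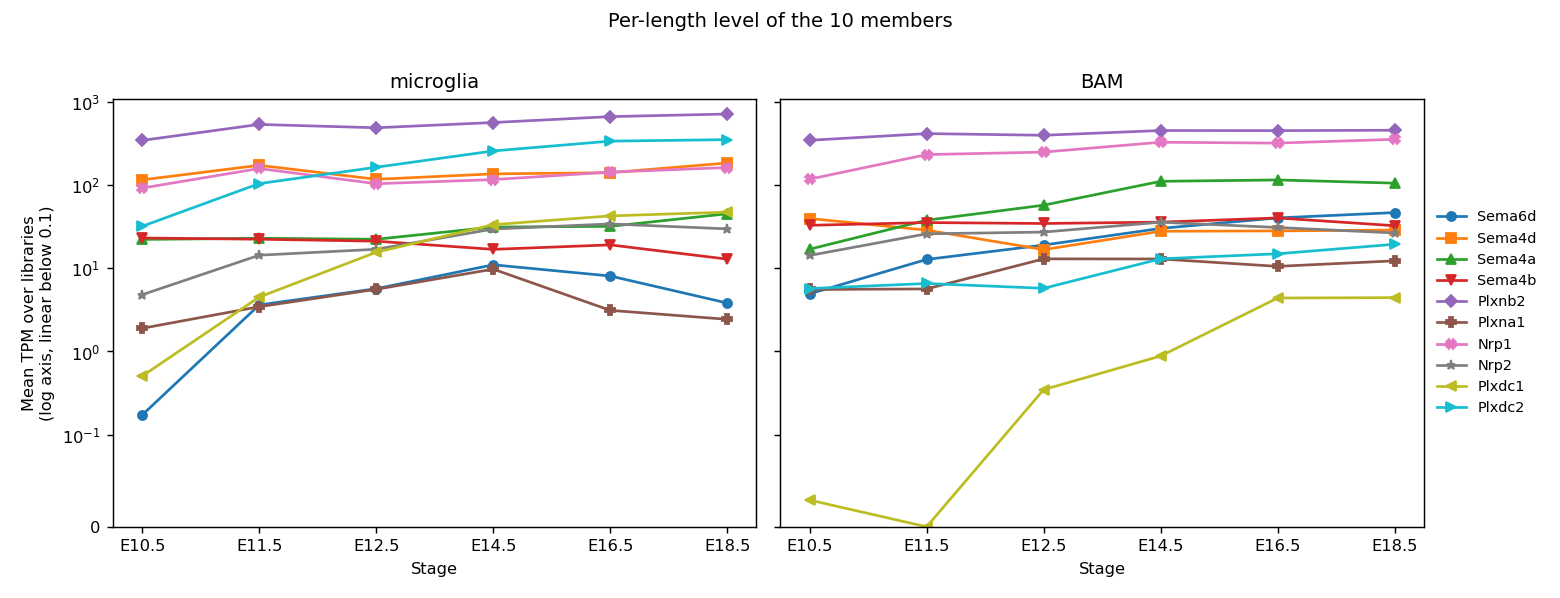
Mean TPM over libraries (log axis, linear below 0.1) of the 10 genes by stage, in microglia on the left and BAM on the right. Plxnb2 lies on top in every group, while the means of Plxdc2 and Plxdc1 climb with stage in microglia and lie lower in BAM at every stage. For Plxdc1 at E10.5 the libraries of the populations overlap, and no fold is read there.

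Sema6d, a transmembrane semaphorin whose known receptor is plexin A1, was higher in BAM than in microglia at every stage. At E10.5 its level in the 4 microglia libraries was 0.145, 0.512, 0.636 and 0.803 CPM, and in the 4 BAM libraries 7.86, 14.0, 14.8 and 23.9 CPM. The lowest BAM library lay well above the highest microglia library. In BAM it rose through 36.7, 38.1 and 42.8 CPM at E11.5 to 129, 136, 161 and 162 CPM at E18.5. Microglia reached 33.8 and 37.1 CPM at E14.5 and stood at 10.1, 11.0, 13.7 and 14.0 CPM at E18.5, so their highest stage lay in the middle of the series. BAM exceeded microglia by 28.3-fold at E10.5, by 2.83-fold at E14.5 and by 11.4-fold at E18.5.

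Sema4d, also known as CD100, is a ligand of B-class plexins and of CD72, and it went the other way. At E10.5 it stood at 148, 198, 210.1 and 306 CPM in microglia and at 42.7, 69.1, 87.3 and 95.0 CPM in BAM. At E18.5 the microglia libraries held 307, 322, 361 and 447 CPM and the BAM libraries 49.5, 52.1, 55.8 and 63.8 CPM. The populations did not overlap at any stage, and microglia exceeded BAM by between 2.94-fold (E10.5) and 7.20-fold (E12.5).

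Sema4a, a semaphorin known from T cell responses and the retina, began level and then parted. At E10.5 microglia held 27.7, 28.9, 40.5 and 41.3 CPM and BAM 17.4, 25.7, 28.6 and 33.9 CPM, so the groups overlapped. By E14.5 BAM held 158, 185 and 200.2 CPM against 42.7 and 60.9 CPM in microglia. At E18.5 BAM held 159, 164, 172 and 186 CPM and microglia 67.1, 69.5, 70.8 and 87.7 CPM. The libraries of the populations lay apart at all stages from E11.5 on, with BAM higher by 1.63-fold at E11.5, 3.75-fold at E16.5 and 2.15-fold at E18.5.

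Sema4b, a related ligand with fewer known functions, was higher in BAM at all stages from E11.5 on, with no overlap between libraries. The difference was 1.61-fold at E11.5 and 2.20-fold at E14.5. It overlapped at E10.5, with 29.5 to 45.9 CPM in microglia and 38.2 to 69.3 CPM in BAM. At E18.5 the microglia libraries held 15.2, 23.1, 24.4 and 24.8 CPM and the BAM libraries 43.8, 57.0, 57.7 and 60.4 CPM, a 2.34-fold difference with no overlap.

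**Figure D2:**
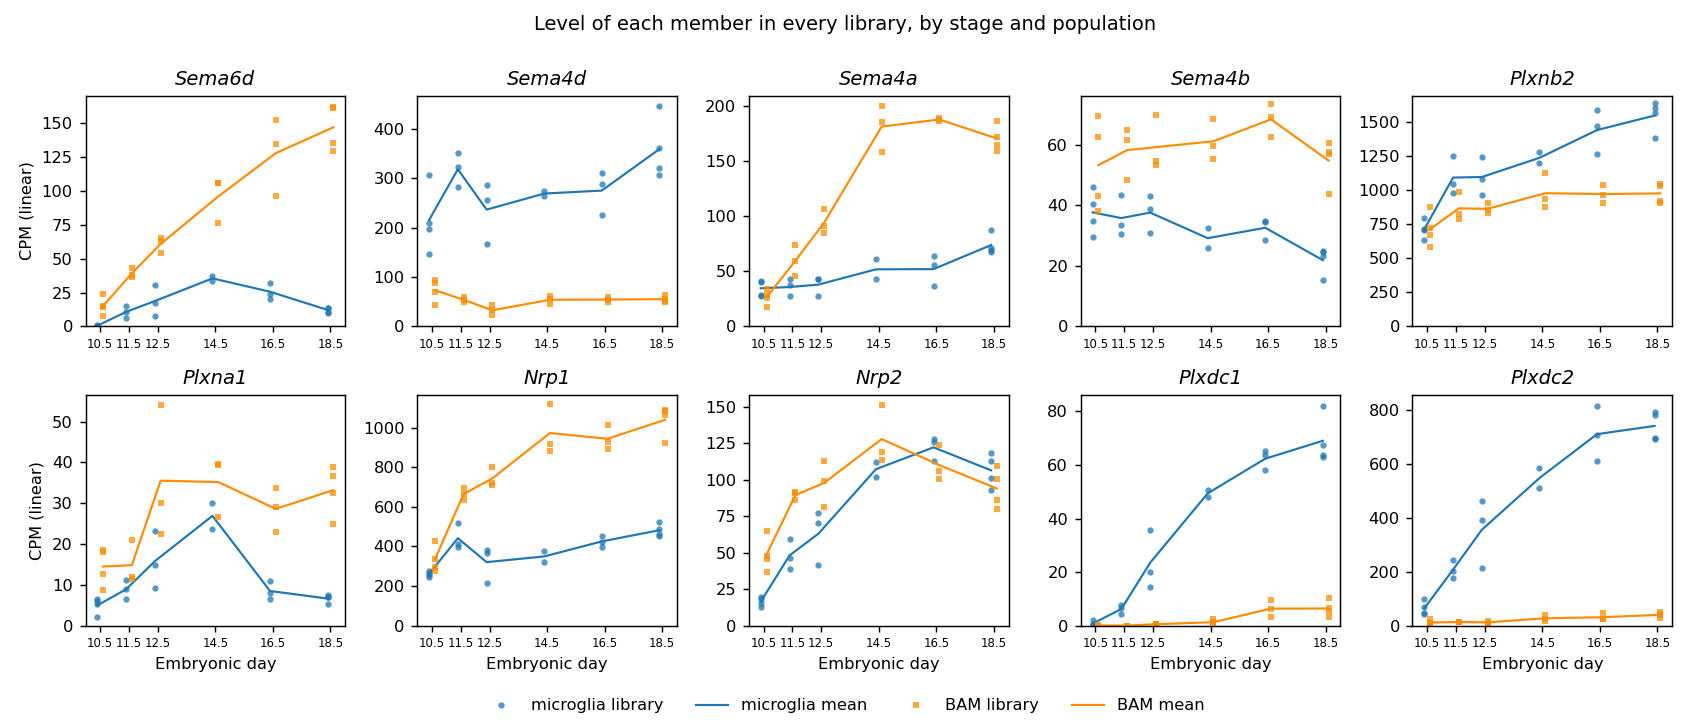
CPM (linear axis from 0) of each of the 10 genes in every library by embryonic day, with microglia as circles, BAM as squares and lines through the group means. Sema6d, Sema4d, Nrp1 and Plxdc2 are the panels in which the populations do not overlap at any stage, and the Sema4d and Plxdc2 panels have microglia on top.

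Promoter sequence is shown for the 3 ligands with the widest mean difference between the populations, so that the letters upstream of these starts can be read beside the levels. RefSeq promoter windows on GRCm38.p6 matched 7 of the 10 genes. The 250 bases before each annotated start were searched on both strands for GGAAGT, the core of sites bound by ETS factors such as the macrophage regulator PU.1, and for TGCTGA, a core of MAF sites. The 7 genes had 15 windows, of which 5 held GGAAGT, and 4 of the 7 genes had it in at least 1 window. Of all 32851 windows of that length, 19.7% held GGAAGT and 16.1% held TGCTGA, which among the members was found in a Plxnb2 window alone, at -97 from the start. These shares are per window. The share of all genes with a match in at least 1 window was not taken, so the 4 of 7 genes are not read against them. A match describes letters, not a site. GGAAGT, or its reverse complement ACTTCC, is in capitals in the windows printed here, each given 5′ to 3′ on the strand of the gene.
Sema6d, chr2:124089719-124089968, plus strand, match at -53: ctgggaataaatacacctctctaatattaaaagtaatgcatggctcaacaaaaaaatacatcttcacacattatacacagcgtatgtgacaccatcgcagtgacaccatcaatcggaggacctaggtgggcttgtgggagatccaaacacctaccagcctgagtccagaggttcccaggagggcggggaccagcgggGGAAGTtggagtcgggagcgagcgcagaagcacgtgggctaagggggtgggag
Sema4d, chr13:51756684-51756933, minus strand, match at -126: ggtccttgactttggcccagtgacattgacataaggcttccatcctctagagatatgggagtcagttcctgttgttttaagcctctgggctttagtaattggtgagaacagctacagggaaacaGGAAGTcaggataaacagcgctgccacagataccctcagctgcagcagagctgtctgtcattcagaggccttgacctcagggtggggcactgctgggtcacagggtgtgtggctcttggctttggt
Sema4a, chr3:88455762-88456011, minus strand, matches at -171 and -10: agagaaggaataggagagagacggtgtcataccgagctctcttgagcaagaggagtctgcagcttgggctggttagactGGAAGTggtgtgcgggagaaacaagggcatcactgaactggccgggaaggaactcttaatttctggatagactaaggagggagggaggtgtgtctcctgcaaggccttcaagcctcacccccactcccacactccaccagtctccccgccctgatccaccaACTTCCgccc

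Sema6d and Sema4d, which differed in opposite directions between the populations, thus each had a window with the ETS core. A further Sema4a window, chr3:88461183-88461432, held it at -211, and the 5 other windows of these 3 ligands (1 of Sema6d, 2 of Sema4d and 2 of Sema4a) held no match. Sema4b carried it at -191 in 1 window, and Nrp1 and Nrp2 had no match to either string in their single windows, which says only that these letters are not there. The table lists a start for Sema6d at the 5′ end of a gene that spans chr2:124089969-124667770, for Sema4d within chr13:51701246-51793747 and for Sema4a within chr3:88435959-88461182.

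Plxnb2, the B-class plexin that binds class 4 semaphorins, was abundant in every library. At E10.5 it did not separate the populations, with 636, 707, 712 and 794 CPM in microglia and 580.2, 673, 718 and 877 CPM in BAM. At E18.5 microglia held 1379, 1562, 1600.1 and 1638 CPM and BAM 902, 921, 1031 and 1043 CPM, with no overlap. The libraries lay apart, with microglia higher, at the 4 stages from E12.5 on.

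Plxna1, the A-class plexin that binds Sema6d, was low and mostly higher in BAM. At E10.5 it stood at 2.03, 5.34, 5.95 and 6.51 CPM in microglia and at 8.82, 12.6, 18.0 and 18.6 CPM in BAM. In microglia it peaked at 23.7 and 30.2 CPM at E14.5 and was 5.22, 6.97, 6.97 and 7.39 CPM at E18.5, when BAM held 24.9, 32.5, 36.6 and 38.8 CPM. The populations overlapped at E12.5 and E14.5. Exons of Plxna1 share 970 bases (10.7% of its exonic length) with the antisense gene Gm26811, which had 211 counts in all libraries together against 15308 for Plxna1.

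The E14.5 peaks of Sema6d and Plxna1 in microglia fell at the stage with the most RNA of neural marker genes. The summed level of 10 neural markers in microglia libraries was 114 to 150 CPM at E10.5, 676 to 980 CPM at E12.5, 1357 to 1491 CPM at E14.5, 354 to 645 CPM at E16.5 and 199 to 350.3 CPM at E18.5. BAM libraries had a like course, with 1059 to 1389 CPM at E14.5 and 311 to 631 CPM at E18.5. All 10 markers were detected in each of those groups, and their part in the levels of Sema6d and Plxna1 was not tested.

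Nrp1, co-receptor for class 3 semaphorins and for vascular endothelial growth factor A, was higher in BAM at all 6 stages with no overlap. At E10.5 the gap was narrow, 244, 257, 267 and 276 CPM in microglia against 277, 295, 336 and 425 CPM in BAM. At E18.5 microglia held 454, 462, 488 and 522 CPM and BAM 922, 1063, 1082 and 1089 CPM. BAM was higher by 1.27-fold at E10.5, 2.92-fold at E14.5 and 2.01-fold at E18.5.

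Nrp2, which also serves vascular endothelial growth factor C, converged. At E10.5 microglia held 12.8, 15.2, 18.3 and 19.4 CPM and BAM 36.6, 45.7, 47.5 and 64.8 CPM. At E14.5 the values were 102 and 112 CPM against 114, 119 and 151 CPM. At E18.5 microglia held 93.1, 101, 113 and 119 CPM and BAM 79.7, 86.1, 100.5 and 109 CPM. BAM libraries lay above microglia at E10.5 to E14.5, and the populations overlapped at E16.5 and E18.5.

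Plxdc1 and Plxdc2 are membrane proteins with a plexin-like extracellular domain, first described in the endothelium of tumours and reported as receptors of the secreted factor PEDF (Serpinf1). Plxdc1 was near 0 in both populations at E10.5, with 0, 0.0854, 0.652 and 2.12 CPM in microglia and 0, 0, 0 and 0.171 CPM in BAM. At E11.5 microglia held 4.45, 6.42 and 7.73 CPM and all 3 BAM libraries were at 0 counts, so microglia were at least 145-fold higher when 3 counts are placed in the BAM group as a whole. That bound takes each count as 1 read pair. Counts of 2 outnumbered counts of 1 over all libraries, with no cause known. The bound would be lower if a pair could enter as 2 counts. At E18.5 microglia held 62.8, 63.7, 67.5 and 82.1 CPM and BAM 3.37, 5.27, 6.63 and 10.2 CPM, an 11.7-fold difference. The E10.5 comparison rests on few counts: all 4 counts in BAM came from replicate 4, and replicate 3 of microglia held 58 counts, so no fold is read there.

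From E12.5 on, only Plxnb2 had a higher mean TPM than Plxdc2 among the 10 in microglia. At E10.5 it stood at 43.5, 46.8, 68.6 and 97.1 CPM in microglia and at 1.71, 9.42, 10.6 and 23.5 CPM in BAM. At E18.5 microglia held 693, 696, 782 and 794 CPM and BAM 27.0, 38.9, 43.6 and 51.0 CPM. The populations did not overlap at any stage, and microglia exceeded BAM by 5.64-fold at E10.5 and by 19.9-fold at E18.5. Without BAM E10.5 replicate 2, the library at 23.5 CPM, the log2 difference at E10.5 was -3.13 in place of -2.50. The microglia marker sum in BAM libraries went from 185 to 275 CPM at E10.5 to 393 to 535 CPM at E18.5, and its part in the BAM levels of Plxdc1 and Plxdc2 was not tested.

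In the mean log2 difference over the 6 stages, 6 of the 10 genes stood above 0 (BAM higher) and 4 below. Of all tested genes, 28.2% were called in that contrast (13.7% higher), and nothing is read from the members' count against it, since the rule used these levels. Among libraries, 4 of the 10 (Sema6d, Sema4d, Nrp1 and Plxdc2) lay apart in the same direction at all 6 stages, against 2.6% of all tested genes. Sema6d and Plxdc2 were chosen by these levels, so nothing is read from that count either. By stage, from E10.5 to E18.5, the share of all tested genes whose libraries lay apart was 7.43%, 17.7%, 22.9%, 35.2%, 33.4% and 21.2%. The mean log2 differences, BAM over microglia, were 2.63 ± 0.15 (standard error) for Sema6d, 1.32 ± 0.15 for Plxna1, 1.09 ± 0.09 for Sema4a, 0.98 ± 0.07 for Nrp1, 0.89 ± 0.09 for Sema4b and 0.50 ± 0.08 for Nrp2. They were -0.38 ± 0.05 for Plxnb2, -2.39 ± 0.10 for Sema4d, -4.08 ± 0.19 for Plxdc2 and -5.29 ± 0.36 for Plxdc1. The last value includes the E11.5 BAM group at 0 counts and so depends on the prior count of the fit.

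**Figure D3:**
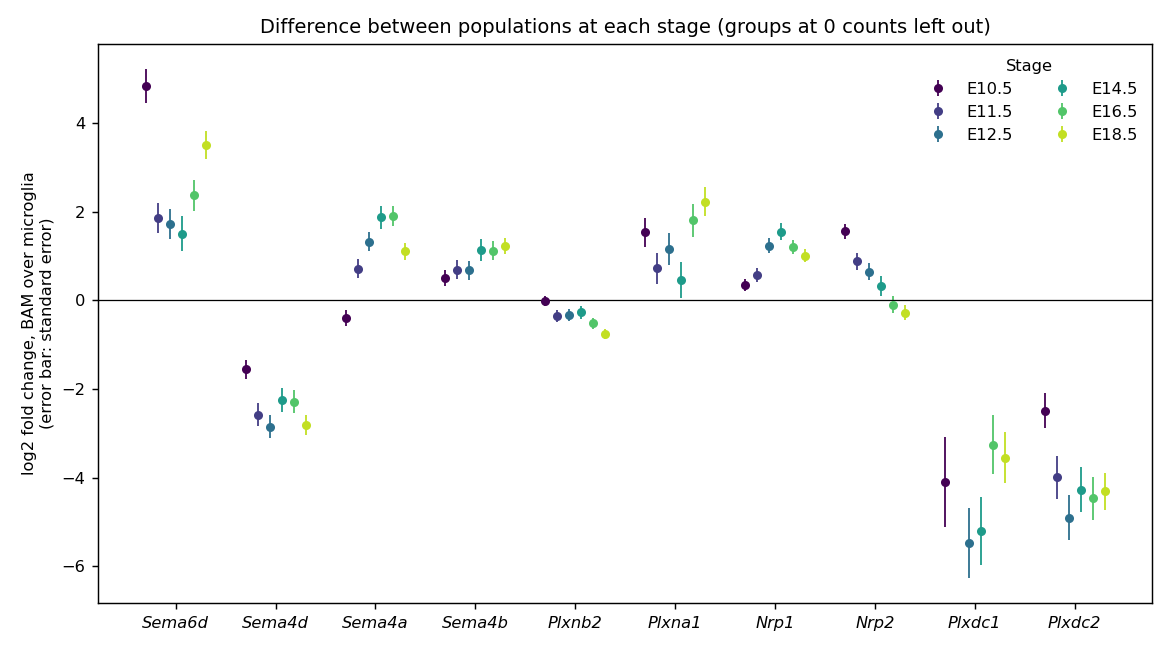
Log2 fold change of BAM over microglia at each of the 6 stages for the 10 genes, with the standard error of the fit as bars and the comparison with a group at 0 counts left out. Nrp2 falls from 1.56 at E10.5 to -0.28 at E18.5, while Sema4d, Plxnb2 (-0.009 at E10.5), Plxdc1 and Plxdc2 stay below 0 at every stage shown. The Plxdc1 value at E10.5 rests on 4 counts in BAM, and no fold is read from it.

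Within microglia, most of the 10 genes rose between E10.5 and E18.5. By edgeR's quasi-likelihood test with Benjamini-Hochberg adjustment over 22061 genes, which is the test behind every adjusted p below, 8 of the 10 rose and 1 fell, where 35.3% of all tested genes were called (20.9% higher, 14.4% lower). The median log2 change of the 10 was 1.17 against 0.29 over all tested genes. Sema6d, Plxdc1 and Plxdc2 are among the 8 that rose, and their levels in these libraries were used to choose them. Counts of members called with stage, here and below, thus describe these libraries and are not independent support. With E18.5 represented by its R10 library alone, whose spread is taken from the other groups, 8 rose and none fell, where 15.2% of all tested genes were called.

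Among the ligands in microglia, Sema6d rose by a log2 change of 4.58 ± 0.39 (adjusted p = 1.546e-11), nearly all of it between E10.5 and E11.5 (4.37 ± 0.39, adjusted p = 1.316e-09). Its start rests on 54 counts over the 4 E10.5 microglia libraries. The BAM marker sum in microglia libraries also rose over that day, from 676 to 1556 CPM at E10.5 to 1543 to 2374 CPM at E11.5. The part of BAM RNA in this Sema6d rise was not tested. Sema4a rose by 1.16 ± 0.19 (adjusted p = 8.537e-06), and between E10.5 and E11.5 its change was 0.09 ± 0.20. Sema4d rose by 0.81 ± 0.21 (adjusted p = 0.00274). Sema4b was the gene that fell, with a log2 change of -0.73 ± 0.18 (adjusted p = 0.00208). Within R10 its value was -0.57 and the call was lost (adjusted p = 0.229), as it was with the library series as a covariate (adjusted p = 0.0873). Over all its alternatives the adjusted p ran from 0.0005238 to 0.229.

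Among the receptors in microglia, Nrp2 had the largest rise of the plexins and neuropilins at 2.76 ± 0.18 (adjusted p = 2.544e-14). The plexin-domain proteins rose further, by 6.62 ± 0.68 (adjusted p = 2.546e-09) for Plxdc1 and 3.60 ± 0.41 (adjusted p = 9.243e-09) for Plxdc2. Without microglia E10.5 replicate 3 the Plxdc1 value was 8.08, since that library held most of its E10.5 counts. Plxnb2 rose by 1.18 ± 0.11 (adjusted p = 3.186e-10) and Nrp1 by 0.95 ± 0.14 (adjusted p = 1.515e-06). Plxna1 was not called, at 0.48 ± 0.32 (adjusted p = 0.255).

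The first day of the series, from E10.5 to E11.5, lies wholly within series R10. Over it 2 of 10 neural, 2 of 9 tested mesenchymal and mural and 1 of 10 endothelial markers were called higher in microglia. In BAM 5 of 9 tested mesenchymal and mural markers were called higher, and 0 neural and 0 endothelial ones. The BAM marker sum in microglia libraries also rose, as given above. The part of such RNA in the members' changes over that day was not tested. In microglia 6 of the 10 rose and none fell over that day, where 8.26% of all tested genes were called (5.24% higher, 3.02% lower): Sema6d, Plxdc1 (3.10 ± 0.63), Plxdc2 (1.74 ± 0.40), Nrp2 (1.58 ± 0.18), Nrp1 (0.78 ± 0.15) and Plxnb2 (0.64 ± 0.12). The Plxdc1 call (adjusted p = 0.00133) was lost when the E10.5 and E11.5 microglia were fitted alone (adjusted p = 0.121, the highest of its alternatives, of which the lowest was 3.918e-06), and without microglia E10.5 replicate 3 its change was 4.61. In BAM 4 of the 10 rose and none fell, where 4.42% were called (2.98% higher, 1.44% lower): Sema6d (1.40 ± 0.31, adjusted p = 0.00551), Sema4a (1.19 ± 0.20, adjusted p = 0.0002373), Nrp1 (1.02 ± 0.15, adjusted p = 3.598e-05) and Nrp2 (0.90 ± 0.18, adjusted p = 0.0016). The Sema6d call was lost when the E10.5 and E11.5 BAM were fitted alone (adjusted p = 0.0556, the highest of its alternatives, of which the lowest was 0.0001533).

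Within BAM, 8 of the 10 rose between E10.5 and E18.5 and none fell, where 37.6% of all tested genes were called (22.8% higher, 14.8% lower), and the median log2 change was 1.39 against 0.29 over all genes. Sema6d rose by 3.26 ± 0.31 (adjusted p = 2.681e-10), Sema4a by 2.66 ± 0.20 (adjusted p = 1.182e-12) and Nrp1 by 1.61 ± 0.14 (adjusted p = 4.259e-11). Plxdc2 rose by 1.78 ± 0.39 (adjusted p = 0.0003918), or by 2.42 without BAM E10.5 replicate 2. Plxdc1 rose by 7.16 ± 0.89 (adjusted p = 9.574e-08) from a start of 4 counts, all in BAM E10.5 replicate 4. Without that library the fitted value was 10.11.

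The 3 other rises in BAM were smaller, and each was lost within R10. Plxna1 changed by 1.17 ± 0.31 (adjusted p = 0.00317), and by 0.71 within R10 (adjusted p = 0.384, over all its alternatives 0.0005004 to 0.384). Nrp2 changed by 0.92 ± 0.17 (adjusted p = 4.1e-05), and by 0.64 within R10 (adjusted p = 0.0994, over all its alternatives 1.724e-07 to 0.0994). Plxnb2 changed by 0.42 ± 0.11 (adjusted p = 0.00307), and by 0.27 within R10 (adjusted p = 0.374, over all its alternatives 0.0001149 to 0.374). Sema4d at -0.44 ± 0.21 (adjusted p = 0.0964) and Sema4b at 0.01 ± 0.18 (adjusted p = 0.994) were not called. With the R10 library alone at E18.5, 5 of the 10 were called, all higher, where 17.3% of all tested genes were called.

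Markers of other cell types rose over the same window in both populations. In microglia 8 of 10 neural, 8 of 9 tested mesenchymal and mural and 5 of 10 endothelial markers were called higher at E18.5 than at E10.5. In BAM 7 neural, 9 mesenchymal and mural and 7 endothelial markers were called higher, and 1 neural marker lower. The summed mesenchymal and mural level went from 2.82 to 20.7 CPM at E10.5 to 118 to 248 CPM at E18.5 in microglia, and from 6.57 to 31.7 CPM to 202 to 709 CPM in BAM. The endothelial sum went from 90.7 to 119.6 CPM to 111 to 211 CPM in microglia and from 54.3 to 78.7 CPM to 91.8 to 374 CPM in BAM. Every endothelial and neural marker was detected in these 4 groups, whereas 2 mesenchymal and mural markers were at 0 in all E10.5 BAM libraries and 1 in all E18.5 microglia libraries. Endothelial and mesenchymal cells also express neuropilins, plexins and Plxdc genes, and the part of these cells in the rises was not tested.

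**Figure D4:**
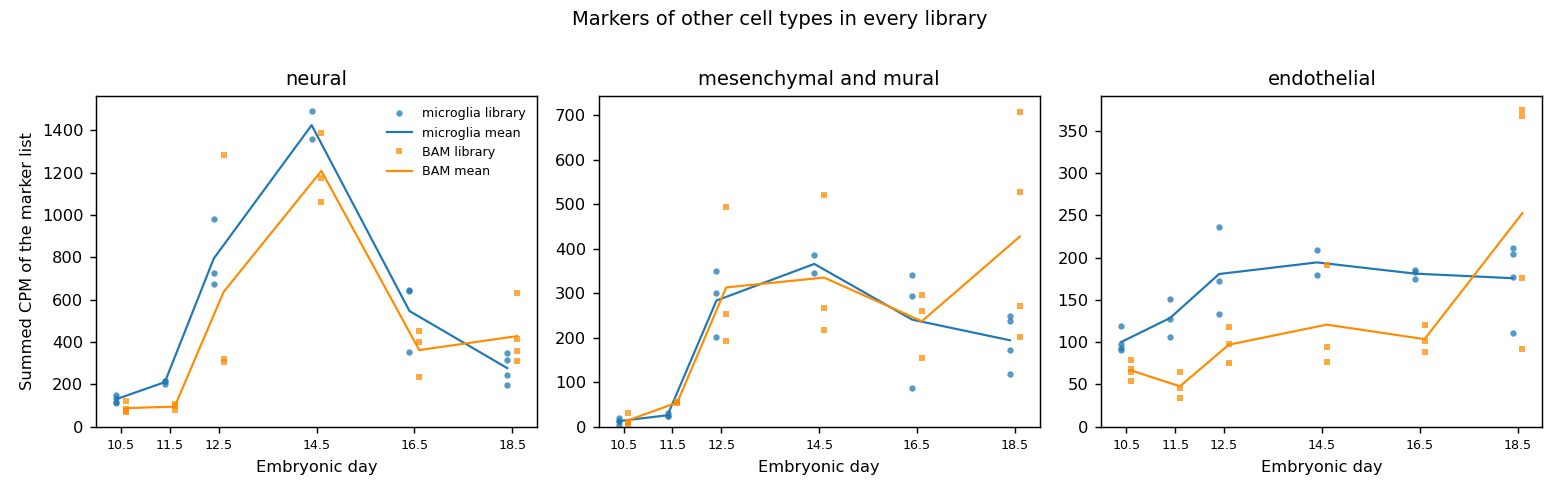
Summed CPM (linear axis from 0) of 10 neural, 11 mesenchymal and mural and 10 endothelial marker genes in every library by embryonic day, with lines through group means. Neural markers are highest at E14.5, with 1357 to 1491 CPM in microglia, and the widest endothelial spread is in E18.5 BAM, at 91.8 to 374 CPM.

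From E12.5 to E18.5, a window that series R8 covers, fewer genes moved and the members still mostly went up. In microglia 5 of the 10 rose and 1 fell, where 6.74% of all tested genes were called (4.01% higher, 2.74% lower). Sema4a (1.13 ± 0.21, adjusted p = 0.0003864), Nrp2 (0.93 ± 0.18, adjusted p = 0.0009031), Nrp1 (0.76 ± 0.15, adjusted p = 0.00104) and Plxnb2 (0.66 ± 0.12, adjusted p = 0.0004353) rose under every alternative other than a 2-fold minimum. Over this window none of the 10 neural markers rose in microglia and 3 fell, and no endothelial or mesenchymal and mural marker was called in either direction.

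The other calls in microglia over that window were less firm. Sema4d rose by 0.77 ± 0.23 (adjusted p = 0.0363), and the call was lost within R8 (0.55, adjusted p = 0.221) and without E18.5 replicate 1 or 4 or E12.5 replicate 1 or 3 (0.50 to 0.82), with adjusted p over all alternatives from 0.0148 to 0.350. Plxna1 fell by 1.08 on the log2 scale (adjusted p = 0.0464), and the call was lost within R8 (-1.20, adjusted p = 0.0578) and without any 1 of the 4 E18.5 libraries or E12.5 replicate 1 or 3 (-1.19 to -0.70), with adjusted p over all alternatives from 0.0160 to 0.285. Sema4b, at -0.62 ± 0.20 (adjusted p = 0.0522), was called lower within R8 (-0.77, adjusted p = 0.0243) and in 6 of its 13 other alternatives, which ranged from 0.0175 to 0.171. Plxdc1 (1.73 ± 0.59, adjusted p = 0.0760), Plxdc2 (1.22 ± 0.41, adjusted p = 0.0673) and Sema6d (-0.45 ± 0.32, adjusted p = 0.459) were not called. Plxdc1 and Plxdc2 each gained a call in 3 of 14 alternatives, which were no expression filter (adjusted p = 0.0159 and 0.0104), counts divided by 2 (0.0221 and 0.0481) and the groups fitted alone (0.00408 and 0.00877), with adjusted p up to 0.330 and 0.369 in the others.

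In BAM 6 of the 10 rose from E12.5 to E18.5 and none fell, where 10.6% of all tested genes were called (5.24% higher, 5.32% lower). Plxdc1 rose by 3.65 ± 0.74 (adjusted p = 0.0007601), from 0.421, 0.483 and 0.616 CPM to the 3.37 to 10.2 CPM of E18.5. Plxdc2 rose by 1.82 ± 0.44 (adjusted p = 0.00412), and without BAM E12.5 replicate 3 the call was lost (1.50, adjusted p = 0.0627, the highest of its alternatives, of which the lowest was 6.412e-05). Sema6d rose by 1.33 ± 0.32 (adjusted p = 0.0043) and Sema4a by 0.92 ± 0.21 (adjusted p = 0.00226).

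Sema4d and Nrp1 also rose in BAM over that window, with calls that hung on single libraries. Sema4d rose by 0.81 ± 0.23 (adjusted p = 0.0198), after its lowest BAM stage of 22.4, 32.9 and 42.8 CPM at E12.5, and the call was lost without E18.5 replicate 1 or 4 or E12.5 replicate 1 or 3 (0.57 to 0.76, adjusted p over all alternatives 0.00354 to 0.226). Nrp1 rose by 0.53 ± 0.15 (adjusted p = 0.0165), and the call was lost within R8 (0.45, adjusted p = 0.0665) and without E18.5 replicate 1 or E12.5 replicate 1 or 2 (0.43 to 0.53, adjusted p over all alternatives 0.00171 to 0.121). Plxnb2 (0.23 ± 0.12, adjusted p = 0.272), Sema4b, Plxna1 and Nrp2 were not called. In BAM 2 of 10 endothelial and 1 of 9 tested mesenchymal and mural markers were called higher over this window, and 1 of 10 neural markers lower.

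**Figure D5:**
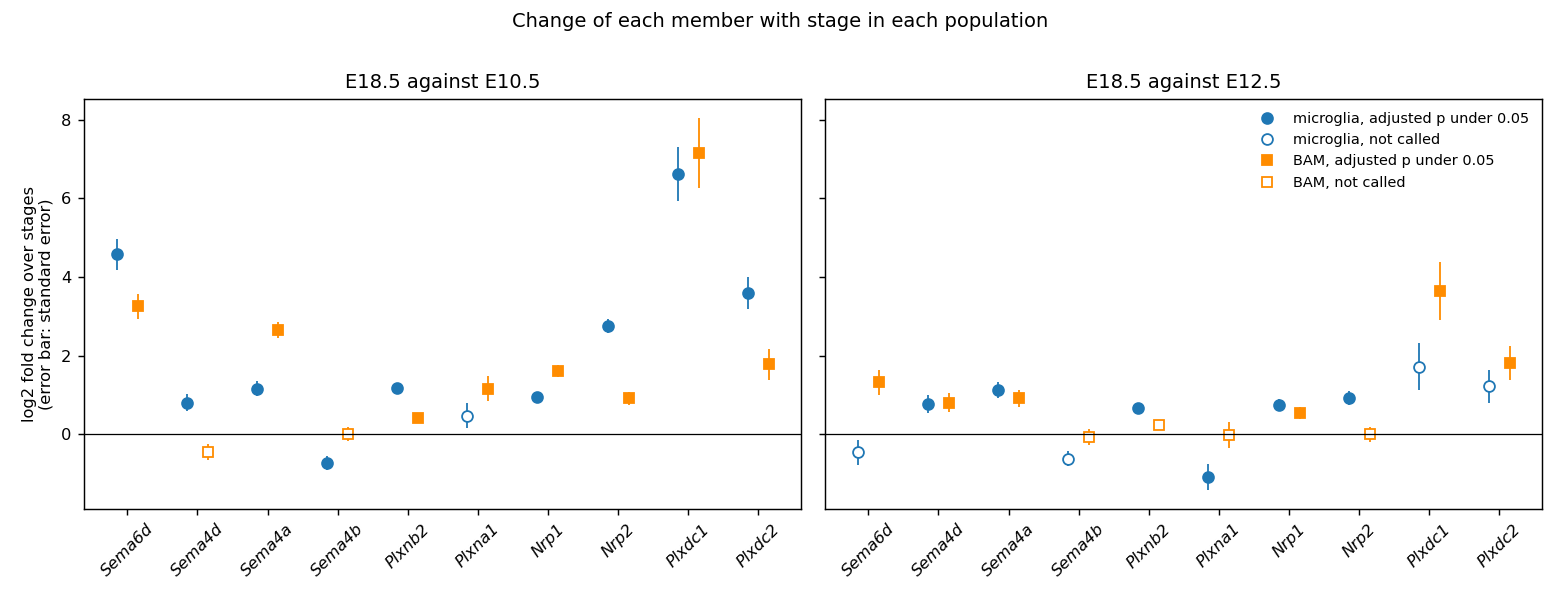
Log2 fold change of E18.5 against E10.5 (left) and against E12.5 (right) in microglia (circles) and BAM (squares), with the standard error as bars and filled symbols for an adjusted p under 0.05. Sema4b in microglia is the filled symbol below 0 on the left, and Plxna1 in microglia the one on the right.

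Whether a gene changed differently between the populations was tested for the 7 members other than Sema6d, Plxdc1 and Plxdc2. This contrast is built from population differences at 2 stages, and the members were chosen with earlier results of these data known. Its counts and adjusted p-values, here and below, thus describe these libraries and are not independent support. From E10.5 to E18.5, 5 of the 7 changed differently, 2 with the larger change in BAM and 3 in microglia, where 6.63% of all tested genes were called (3.08% higher, 3.55% lower). Sema4a gained more in BAM, by a log2 difference of 1.50 ± 0.27 (adjusted p = 0.0001875), and Nrp1 likewise by 0.67 ± 0.20 (adjusted p = 0.0314). Nrp2 gained more in microglia, at -1.84 ± 0.24 (adjusted p = 1.129e-06), as did Sema4d at -1.25 ± 0.30 (adjusted p = 0.00592) and Plxnb2 at -0.76 ± 0.16 (adjusted p = 0.00153). Sema4b (0.73 ± 0.26, adjusted p = 0.0847) and Plxna1 (0.69 ± 0.44, adjusted p = 0.452) were not called. Sema4b gained a call with adjacent library numbers as a block (0.77, adjusted p = 0.0440), with DESeq2 (0.75, adjusted p = 0.0409) and without BAM E10.5 replicate 1 (adjusted p = 0.0258) or microglia E10.5 replicate 3 (adjusted p = 0.0446), and over all its alternatives the adjusted p ran up to 0.665.

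Of those 5 differences, Nrp2 alone kept its call with the R10 library alone at E18.5. That setting has 1 library per E18.5 group, and calls were fewer over all tested genes as well. There Sema4d stood at -1.58 (adjusted p = 0.116, over all its alternatives 4.723e-05 to 0.116), Sema4a at 1.23 (adjusted p = 0.210, from 2.386e-06) and Plxnb2 at -0.99 (adjusted p = 0.0518, from 0.0001488). The Nrp1 call was also lost without any 1 of 8 libraries, which were microglia E10.5 replicate 4, microglia E18.5 replicates 2, 3 and 4, BAM E10.5 replicates 3 and 4 and BAM E18.5 replicates 1 and 2 (0.58 to 0.66, adjusted p over all alternatives 0.00392 to 0.582). From E12.5 to E18.5, 1 of the 7 was called, where 2.19% of all tested genes were (0.961% higher, 1.23% lower). This was Nrp2 at -0.93 ± 0.25 (adjusted p = 0.0427), which lost its call in 12 of 22 alternatives, 9 of them with 1 library left out: microglia E12.5 replicates 2 and 3, microglia E18.5 replicates 1, 3 and 4, BAM E12.5 replicates 1 and 2 and BAM E18.5 replicates 1 and 3 (weakest value -0.72, adjusted p over all alternatives 0.0205 to 0.178).

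Other genes of the guidance system were taken from a list of 116, of which 114 were tested. The list was chosen with earlier results of these data known. The adjusted p-values of its genes, here and below, thus describe these libraries and are not independent support. Over the mean of the 6 stages 11 were higher in BAM and 14 lower, or 21.9% against 28.2% of all tested genes. Among plexins, Plxnd1, a receptor for Sema3e and Sema4a, was higher in BAM by 1.56 ± 0.09 (adjusted p = 2.827e-16) and Plxnc1, the receptor of Sema7a, by 0.84 ± 0.08 (adjusted p = 3.125e-10). Both parted with stage. Plxnd1 went from 22.8 to 41.0 CPM at E10.5 to 14.3 to 20.5 CPM at E18.5 in microglia, and from 51.6 to 67.1 CPM to 62.2 to 84.4 CPM in BAM. Plxnc1 changed by -1.31 ± 0.18 (adjusted p = 6.875e-07) in microglia and by 0.81 ± 0.18 (adjusted p = 0.0004676) in BAM, and the difference of these changes was 2.12 ± 0.26 (adjusted p = 3.575e-07).

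Among partners of the members, Trem2, an immune receptor described with plexin A1 in the response to Sema6d, was lower in BAM by a log2 difference of -1.61 ± 0.09 (adjusted p = 5.056e-17). Its range went from 89.4 to 152 CPM at E10.5 to 634 to 1003 CPM at E18.5 in microglia, and from 62.8 to 127 CPM to 126 to 243 CPM in BAM. Trem2 thus gained more in microglia (-1.79 ± 0.27, adjusted p = 1.273e-05), whereas Sema6d and Plxna1 were higher in BAM. Tyrobp, the adaptor that Trem2 signals through, was not called between populations (-0.16 ± 0.06, adjusted p = 0.0622, over all its alternatives 0.0158 to 0.256). Cd72, a lymphoid receptor of Sema4d, was lower in BAM by -2.84 ± 0.26 (adjusted p = 4.27e-11), the direction of Sema4d itself. Serpinf1, which encodes PEDF, was lower in BAM too, at -0.86 ± 0.17 (adjusted p = 0.0001103).

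Other semaphorins and signalling genes differed in both directions. Sema4g (-2.47 ± 0.26, adjusted p = 9.846e-10) and Sema4c (-1.29 ± 0.14, adjusted p = 1.355e-09), both class 4 ligands, were lower in BAM, and Sema6b (0.98 ± 0.27, adjusted p = 0.00543) was higher. Mical1, an oxidoreductase that acts on actin downstream of plexins, was lower in BAM at -1.47 ± 0.12 (adjusted p = 3.698e-12). The kinases Limk1 (-0.73) and Rock2 (-0.23), the scaffold Ranbp9 (-0.55) and the Slit-Robo protein Srgap2 (-0.57) were also lower, while Gipc1 (0.51), Gsk3b (0.51) and Rap1a (0.28) were higher.

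With stage, 54 of the 114 rose and 9 fell in microglia between E10.5 and E18.5, or 55.3% against 35.3% of all tested genes, and 58 rose and 10 fell in BAM, or 59.6% against 37.6%. With the R10 library alone at E18.5 19 (16.7%) were called in microglia and 23 (20.2%) in BAM, against 15.2% and 17.3% of all tested genes. From E12.5 to E18.5 the share was 6.14% in microglia and 7.02% in BAM, against 6.74% and 10.6% of all tested genes. The neural and mesenchymal marker sums given above rose over the longer window, and their part in these counts was not tested.

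Across the 12 group means, genes among the most like Plxdc2 in log2 CPM were H2-DMa (r = 0.991) and Olfml3 (r = 0.989), of 7712 candidates. Those most like Plxdc1 were Sall1 (r = 0.984), Sparc (r = 0.973) and Srpk3 (r = 0.971). Those most like Sema6d were Smim1 (r = 0.952), Zcchc24 (r = 0.951) and Ggt5 (r = 0.949). Among the members, Sema4a went with Nrp1 (r = 0.919), Plxdc1 with Plxdc2 (r = 0.899) and Sema4d with Plxdc2 (r = 0.897), and Sema4d ran against Sema4b (r = -0.908). The 12 points share populations, stages and libraries, so these values describe likeness and carry no test.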

How the data were processed

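Total RNA of sorted cells was made into libraries with a modified SMART-seq2 protocol and Nextera XT and sequenced in pairs, per the labels' protocols. The authors deposited counts of reads per gene; alignment with STAR to GRCm38 and counting with featureCounts are named in the submitters' processing notes, with versions, annotation and strand setting not given in the sources used here. Reads carry no molecular identifiers, so bounds from counts cover counting error alone. Counts of 2 (49977 table cells) were more frequent than counts of 1 (21280).

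The table held 53379 genes, of which 22061 passed edgeR's filterByExpr and kept 99.97% of counts. All 39 libraries in 12 groups were fitted together with TMM factors and edgeR 4.0.16's quasi-likelihood test (R 4.3.3, limma 3.58.1), with 27 residual degrees of freedom, Benjamini-Hochberg adjustment over all tested genes and calls at 0.05. The standard error is the log2 change over the square root of F. CPM is the count over the library total, and TPM uses the table's gene lengths. A group at 0 was given a floor of 3 counts. The fit was tested on simulated data. Their spread was the same for every gene and below the common one of these data (55.1% as a coefficient of variation). Changes were placed in well-counted genes alone, so the test does not cover genes near 0 such as Plxdc1 at E10.5. No 2 of the 46 replicate pairs were identical.

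The members and gene lists were chosen with earlier results of these data known. All 10 members were named; of the guidance list, those called over the mean of the stages whose average log2 CPM reached 4, at most 8 each way, plus receptors or ligands that bind a member; and the 3 genes most correlated with Sema6d, Plxdc1 and Plxdc2. Alternatives were DESeq2 1.42.0, RLE factors, no filter, a 2-fold minimum, halved counts, groups alone, library series as a covariate or alone, adjacent library numbers as a block, and each library left out. A gene that these rules would name is not reported here.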

Additional observations from a re-analysis of the deposited data

Results flagged for a closer look

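For 5 genes the change from E10.5 to E18.5 differed between the populations by the test of the difference itself (edgeR's quasi-likelihood test, adjusted p under 0.05). The log2 differences, BAM change less microglia change, were -1.25 for Sema4d, 1.50 for Sema4a, -0.76 for Plxnb2, 0.67 for Nrp1 and -1.84 for Nrp2. From E12.5 to E18.5 the same held for Nrp2, at -0.93. The members were chosen with earlier results of these data known, so these calls are not independent support. Each member was looked at in each group of 4 libraries, which makes 40 sets that reuse the same libraries. In 2 of the 40 sets, 1 library stood apart from the other 3, where chance gives about 1 in 20, or 2. These were the lowest Nrp1 library of E18.5 BAM, at 922 CPM beside 1063 to 1089 CPM, and the highest Plxdc1 library of E10.5 BAM, at 0.171 CPM beside 0 in the others. In the Plxdc1 set the 3 other libraries are tied at 0, so any count stands apart and the rate of 1 in 20 does not apply.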

How the results depend on the processing

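No called result changed direction under any alternative run, whereas the sign of values not called or not tested turned, or reached 0, for 13 results, such as Sema6d in microglia from E12.5 to E18.5 (-0.82 to 0.10) and the Plxdc1 difference of changes from E10.5 to E18.5 (0.55, and -0.94 without microglia E10.5 replicate 3). Of 74 tests of single members, 45 were called and 29 of these kept their call in every alternative other than a 2-fold minimum, while 7 of the 29 uncalled ones gained a call in some. A 2-fold minimum lowered the members called from 9 to 4 (microglia) and 8 to 5 (BAM) for E18.5 against E10.5, from 6 to 0 and 6 to 1 against E12.5, from 6 to 2 and 4 to 0 for E11.5 against E10.5, and from 5 to 1 and 1 to 0 for the differences of changes. It lowered the other guidance genes called from 25 to 7 between populations, 63 to 27 in microglia and 68 to 37 in BAM. With library series as a covariate the last 2 counts were 28 and 35. With the R10 library alone at E18.5 they were 19 and 23, the members called in BAM 5 and the differences of changes 1. The Nrp2 difference from E12.5 was the 1 call there, and the count was 0 with RLE factors, with R8 alone and with the groups alone, and 0 to 1 with 1 library left out. The cause was not tested. The labels give no replicate numbers to pair by. With adjacent library numbers as a replicate block (19 pairs, 1 library unpaired) the guidance genes called between populations were 30 and the differences of changes 6 and 1, the gain being Sema4b (adjusted p = 0.0440). The share of all tested genes called is not set beside the counts in this section. A fall or gain in calls is therefore not read as a trait of these genes. Stage and library series are partly joined, and low counts of Plxdc1 limit its comparisons at E10.5 and E11.5.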
